A study of Mus musculus with 30 samples.

Results

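The 10 genes described here, Slc2a1, Pgk1, Ldha, Pdk1, Bnip3, Egln3, Vegfa, Adm, Ndrg1 and Car9, form a panel of hypoxia and glycolysis genes. The panel was chosen by name, with earlier results of these data known. All 10 were found among the 20321 genes of the count table. RNA was sequenced from the tip of the third hindlimb digit (the distal phalanx, P3) of 30 adult male C57Bl/6 mice, 9 to 10 weeks old, after amputation of at most 33% of P3, a wound that closed without sutures. Of the 9 time points between 0 h and 21 d, the one at 7 d held 6 mice and each other (3 h, 6 h, 12 h and 24 h among the hours, 3 d, 14 d and 21 d among the days, and 0 h itself) held 3. Every mouse was amputated, so the 0 h digits served as the only control. The titles of 0 h mouse 3 and 12 h mouse 2 share an animal label and a date, although the study counts 30 mice, and they were treated as separate mice. Dates in the sample titles placed 16 mice in a July to August campaign and 14 in a November to January campaign. The 3 h and 12 h groups came wholly from the earlier campaign and the 21 d group wholly from the later, which left time and campaign separable only in part, and 3 of the mice at 7 d were labelled left foot.

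Cells sense oxygen through prolyl hydroxylases of the EGLN family, which mark the alpha subunits of hypoxia-inducible factor (HIF) for destruction by the VHL ubiquitin ligase. When oxygen is low the mark is not made, HIF alpha accumulates, pairs with ARNT and binds DNA elements with the core ACGTG or GCGTG. Its targets raise glucose uptake and glycolysis, hold pyruvate back from mitochondria, promote vessel growth and regulate acidity, and they include Egln3, a hydroxylase of the pathway itself. The bone of the digit tip is rebuilt after amputation through breakdown of the stump, closure of the skin and growth of a blastema, and oxygen in the wound is known to change over this course.

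Libraries held between 3167625 and 16277816 expected counts (median 6103688). All 10 genes passed the filter on low counts. The smallest count of a gene in any mouse was 1341 for Pgk1 and 2078 for Ldha, but 15 for Adm and 0 for Car9, so the values of Car9 were by far the least precise. Levels are given as CPM, counts scaled to the effective size of each library, which compare mice for the same gene. Levels of different genes were compared as TPM, transcript shares that also allow for gene length. On that scale Ldha and Pgk1 were the most abundant, with medians over the 30 mice of 936.3 and 595.4 TPM. Egln3 had a median of 103.0, Ndrg1 83.4, Slc2a1 81.6, Bnip3 77.0, Pdk1 72.9, Vegfa 65.1, Adm 26.5 and Car9 1.53 TPM. In bulk tissue, fewer cells of a type and less RNA per cell cannot be told apart. Summed markers of keratinocytes were abundant in every mouse (27970 CPM or more), and those of fibroblasts (at least 3331 CPM) and of osteoblasts and osteocytes (at least 124.6 CPM) were present throughout, whereas those of skeletal muscle reached at most 56.8 CPM and were at 0 in at least 1 mouse.

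The mapping limits the reading of 3 of the genes. Of all stretches of 31 bases in its exons, Pgk1 shared 54.7% with the gene copy Pgk1-rs7, Bnip3 20.3% with other annotated genes and Ldha 19.6%. For each of these genes the 3 copies that shared most were looked up, and none of them was listed in the count table. Reads from them could therefore have been counted to the 3 genes, whose values are uncertain to that degree. Further copies were not looked up. For the other members the share was below 1%. Exons of Slc2a1, Bnip3, Ndrg1 and Car9 overlapped annotated genes on the opposite strand over 105, 504, 556 and 214 bases, and whether the counting used strand is not given in the sources used here, so these reads may be mixed.

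The stretches of DNA before the start of 4 of the genes are shown, because these 4 formed the pairs that varied together between mice of the same time and campaign, as described further on. Sequences are from RefSeq (GRCm38.p6) and give the 250 bases before the transcript start, 5′ to 3′ along the gene's strand. Capitals mark ACGTG or GCGTG read on either strand, which appear as CACGT or CACGC when they lie on the other strand, and as CACGTG where ACGTG lies on both. They lay at chrX:106186850-106187099 (plus strand) for Pgk1, chr7:46845554-46845803 (plus) for Ldha, chr7:138909507-138909756 (minus) for Bnip3 and chr12:54203875-54204124 (minus) for Egln3.
Pgk1: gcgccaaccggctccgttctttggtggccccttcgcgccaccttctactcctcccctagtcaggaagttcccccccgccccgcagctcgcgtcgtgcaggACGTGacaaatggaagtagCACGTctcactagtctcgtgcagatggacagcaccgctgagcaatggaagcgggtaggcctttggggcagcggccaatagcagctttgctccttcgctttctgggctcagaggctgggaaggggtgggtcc
Ldha: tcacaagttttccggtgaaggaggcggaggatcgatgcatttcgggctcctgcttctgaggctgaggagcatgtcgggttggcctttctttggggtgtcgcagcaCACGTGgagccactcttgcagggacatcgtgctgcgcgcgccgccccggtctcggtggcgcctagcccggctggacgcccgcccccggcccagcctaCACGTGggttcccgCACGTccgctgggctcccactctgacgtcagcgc
Bnip3: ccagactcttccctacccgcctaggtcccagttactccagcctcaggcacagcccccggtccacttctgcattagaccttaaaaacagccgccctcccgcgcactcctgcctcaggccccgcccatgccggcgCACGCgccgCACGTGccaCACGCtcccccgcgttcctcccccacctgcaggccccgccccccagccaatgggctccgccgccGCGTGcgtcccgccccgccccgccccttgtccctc
Egln3: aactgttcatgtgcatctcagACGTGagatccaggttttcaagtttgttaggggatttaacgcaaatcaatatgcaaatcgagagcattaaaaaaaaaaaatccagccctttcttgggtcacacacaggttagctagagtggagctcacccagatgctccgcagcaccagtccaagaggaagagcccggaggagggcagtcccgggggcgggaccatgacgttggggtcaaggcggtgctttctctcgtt
In these windows Ldha held CACGTG at 2 places and Bnip3 at 1, each beside further matches, Pgk1 held 2 matches and Egln3 only 1, at 229 bases before its start. Ldha had a second window, not shown, which held 1 match (GCGTG) and no CACGTG. Windows were found for 9 of the 10 members, and all 9 held at least 1 of the cores in 1 of their windows. ACGTG was found in windows of 7 members and GCGTG in windows of 6. Some members had more than 1 window, and of the 12 windows of members 7 held ACGTG, 6 GCGTG and 10 either. Of 32851 such windows of the mouse, 16.6% held ACGTG, 28.2% GCGTG and 38.6% either. A match describes letters and is not a measured binding site.

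The question of the time course was whether, and when, the 10 genes changed after amputation. Across the 9 time points, 2 of the 10 genes changed by edgeR's quasi-likelihood F-test at an adjusted p under 0.05, Egln3 (adjusted p = 0.0149) and Vegfa (adjusted p = 0.0255). Of all 13793 genes tested, 9.01% were called in that test. By mean CPM, 9 of the 10 genes were highest at 3 d, and Ldha was highest at 24 h, while 7.98% of all genes tested were highest at 3 d. This peak rested largely on 1 of the 3 mice, since 3 d mouse 2, a mouse of the earlier campaign whose library was among the shallowest with 3177205 counts, had the highest level of all 30 mice in 9 of the 10 genes. Over all genes tested, that mouse was the highest in 4.56%. When it was left out, 3 genes still had their highest mean at 3 d (Pgk1, Egln3 and Car9), 3 at 24 h, 2 at 7 d, and 1 each at 3 h and 21 d. The shares of all genes highest at these times were then 8.11%, 12.8%, 13.7%, 17.2% and 11.1%. Results at 3 d are therefore given with and without 3 d mouse 2. When the 9 times were ordered by their mean in each gene, mice of neighbouring times overlapped throughout, except that Egln3 at 12 h lay above 0 h and Ndrg1 at 3 h above 24 h.

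**Figure D1:**
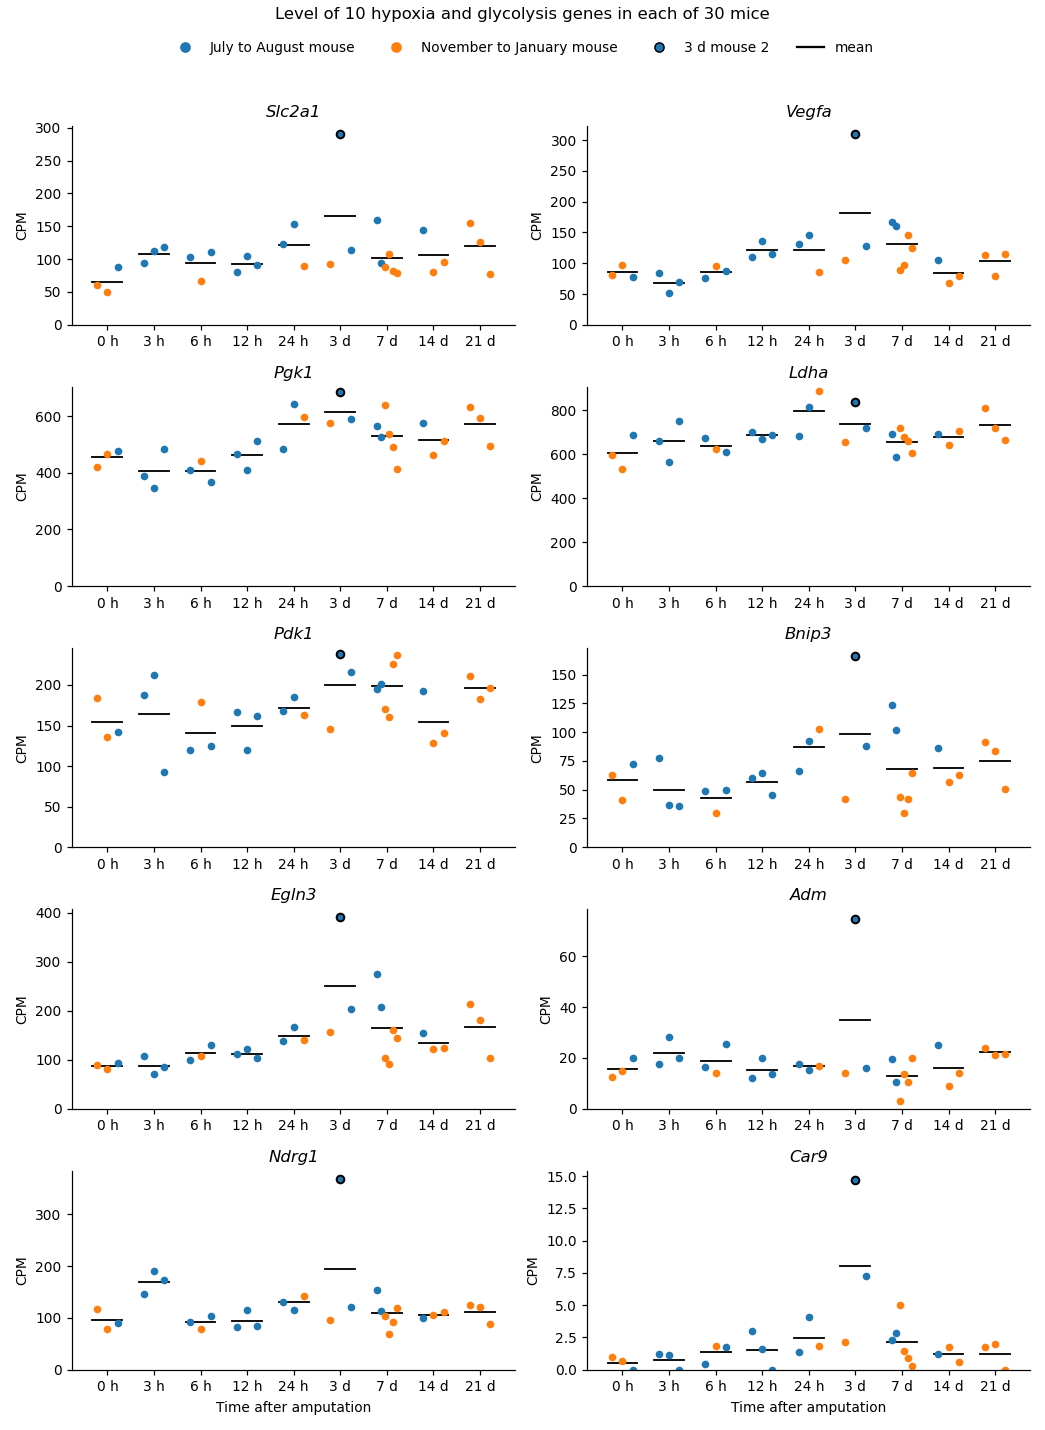
Level of each of the 10 genes (y axis, CPM, from 0) in each of the 30 mice by time after amputation (x axis, in order and not to scale); points are mice coloured by campaign, bars are means and the ringed point is 3 d mouse 2. The ringed mouse stands above all others in every panel but Ldha, for example in Adm (74.9 against at most 28.4 CPM) and Ndrg1 (369.4 against at most 191.5 CPM), and only narrowly in Pdk1 (238.0 against at most 236.7 CPM).

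Among the genes of glucose uptake and glycolysis, Slc2a1, which encodes the glucose transporter GLUT1, was measured at 59.8, 49.8 and 87.7 CPM in the 3 mice at 0 h. At 3 d it stood at 91.8, 290.9 and 114.4 CPM, so that all 3 mice were above all 0 h mice and 1 far above the other two. Levels at 3 h (94.6, 112.4 and 117.8 CPM) also did not overlap with those at 0 h, and 21 of the 27 mice after 0 h lay above the highest 0 h mouse. The log2 fold change against 0 h was largest at 3 d, at 1.33 ± 0.348 (SE), with an adjusted p = 0.0894 in edgeR's test, and it was 0.67 ± 0.317 without 3 d mouse 2 (adjusted p = 1). With campaign as a covariate it was 1.06 ± 0.258 (adjusted p = 0.0474), and Slc2a1 was then also higher at 21 d (1.13 ± 0.255, adjusted p = 0.00829). The lowest mean was at 0 h, 65.8 ± 19.6 CPM (SD, n = 3).

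Pgk1, phosphoglycerate kinase, the enzyme of the first step of glycolysis that yields ATP, moved over a narrow range. It was measured at 419.1, 467.3 and 475.3 CPM at 0 h, stood at 388.1, 346.8 and 484.7 CPM at 3 h, and reached at 483.6, 642.6 and 595.2 CPM at 24 h and 574.5, 685.8 and 588.1 CPM at 3 d. All mice at 24 h and 3 d lay above all at 0 h, and so did those at 21 d (493.2 to 633.7 CPM). Against 0 h the log2 fold change at 3 d was 0.44 ± 0.176 (adjusted p = 0.534), and without 3 d mouse 2 it was 0.37 ± 0.195. Of the 10 genes, its log2 fold change moved least when that mouse was left out.

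Ldha, lactate dehydrogenase A, which turns pyruvate into lactate, was the most abundant and the steadiest. Its means ran from 605.9 ± 77.8 CPM at 0 h to 796.0 ± 105 CPM at 24 h (SD, n = 3 each), a 1.31-fold span. At 24 h the mice stood at 682.2, 816.7 and 889.0 CPM against 598.5, 532.0 and 687.1 CPM at 0 h, and the groups overlapped. The log2 fold change there was 0.39 ± 0.159 (adjusted p = 0.399).

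Pdk1 and Bnip3 act on mitochondria. Pdk1, a kinase that switches off pyruvate dehydrogenase, ranged from a mean of 141.4 ± 32.5 CPM at 6 h to 199.9 ± 47.9 CPM at 3 d (SD, n = 3 each). Its 3 d mice (146.2, 238.0 and 215.6 CPM) overlapped with those at 0 h (184.2, 135.8 and 141.7 CPM), and the log2 fold change was 0.37 ± 0.241 (adjusted p = 0.912). Bnip3, a receptor for the removal of mitochondria by autophagy, was measured at 63.0, 40.8 and 72.3 CPM at 0 h and at 41.9, 166.0 and 88.4 CPM at 3 d, where its lowest mouse lay within the 0 h range. The log2 fold change at 3 d was 0.74 ± 0.438 (adjusted p = 0.865), and it was 0.16 ± 0.455 without 3 d mouse 2. At 7 d Bnip3 ran from 30.1 to 123.8 CPM with a median of 54.2 CPM, and the 2 mice of the earlier campaign (123.8 and 101.8 CPM) lay above all 4 of the later one.

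Egln3, the oxygen-sensing hydroxylase PHD3, which HIF itself induces, showed the clearest change of the 10. It was measured at 88.9, 81.2 and 92.8 CPM at 0 h and at 107.4, 70.8 and 83.9 CPM at 3 h. From 6 h on its mice lay above the highest 0 h mouse with 1 exception, as levels were 99.8, 107.2 and 130.6 CPM at 6 h, 112.2, 121.8 and 102.7 CPM at 12 h, and 137.5, 166.2 and 139.5 CPM at 24 h. At 3 d it was measured at 155.2, 390.2 and 202.3 CPM, so that even the lowest 3 d mouse was above the highest 0 h mouse. It ran from 91.2 to 274.3 CPM at 7 d with a median of 152.3 CPM, where 1 mouse fell within the 0 h range. Levels were 154.2, 122.2 and 123.4 CPM at 14 d and 213.7, 181.0 and 102.4 CPM at 21 d. In all, 24 of the 27 mice after 0 h lay above the highest 0 h mouse.

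Against 0 h, Egln3 rose at 3 d with a log2 fold change of 1.51 ± 0.326 (adjusted p = 0.0209, edgeR), the only member called at that time, beside 0.551% of all genes tested. Without 3 d mouse 2 the log2 fold change was 1.04 ± 0.321 and the call was lost (adjusted p = 0.362), and the adjusted p of its F-test was then 0.0575. In that fit 0.291% of 14076 genes were called at 3 d. Within campaigns the difference on the log2(CPM + 1) scale was 1.59 in the earlier one, from 2 mice against 1, and 0.86 in the later one, from 1 mouse against 2. At 7 d the log2 fold change was 0.90 ± 0.288 (adjusted p = 0.103) and at 21 d it was 0.92 ± 0.321 (adjusted p = 0.207). With campaign as a covariate Egln3 rose at both times, by 0.83 ± 0.238 at 7 d (adjusted p = 0.0441) and 1.077 ± 0.270 at 21 d (adjusted p = 0.0199).

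The secreted factors differed from each other. Vegfa, the main growth factor of blood vessels, was measured at 80.6, 97.7 and 78.1 CPM at 0 h and had its lowest mean at 3 h, where the mice stood at 83.8, 52.3 and 69.8 CPM. It was measured at 110.5, 136.3 and 115.4 CPM at 12 h, all above 0 h, and at 105.0, 310.3 and 128.4 CPM at 3 d, again all above. At 7 d it ran from 89.7 to 167.1 CPM with a median of 135.5 CPM, and at 14 d (105.4, 67.4 and 79.2 CPM) its mice lay on both sides of the 0 h range. No single time was called against 0 h, with the largest log2 fold change at 3 d (1.079 ± 0.301, adjusted p = 0.126, and 0.46 ± 0.272 without 3 d mouse 2). The F-test over all times remained past the threshold without that mouse (adjusted p = 0.0439), whereas leaving out 3 h mouse 2 or 3 h mouse 3 gave 0.0569 and 0.0509.

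Adm encodes adrenomedullin, a peptide that widens vessels. It was measured at 12.4, 14.8 and 20.0 CPM at 0 h and at 14.2, 74.9 and 16.0 CPM at 3 d, so that its peak was a single mouse. The log2 fold change at 3 d was 1.14 ± 0.515 (adjusted p = 0.680) with that mouse and -0.04 ± 0.478 without it. At 21 d Adm stood at 24.0, 21.0 and 21.5 CPM, all above the 0 h mice, with a log2 fold change of 0.50 ± 0.506 (adjusted p = 0.992).

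Ndrg1, a stress-responsive gene of differentiating epithelia, had an early high of its own. It was measured at 146.4, 191.5 and 173.1 CPM at 3 h against 116.6, 79.6 and 89.6 CPM at 0 h, and at 91.9, 78.8 and 104.3 CPM at 6 h. The 3 h mice lay above every mouse at 0 h, 6 h, 12 h and 24 h. The log2 fold change at 3 h was 0.84 ± 0.320 (adjusted p = 0.322). All 3 h mice belonged to the earlier campaign, whose single 0 h mouse stood at 89.6 CPM. At 3 d Ndrg1 was measured at 96.5, 369.4 and 120.4 CPM, and the log2 fold change of 1.03 ± 0.320 (adjusted p = 0.232) became 0.20 ± 0.246 without mouse 2. Car9, carbonic anhydrase IX, which regulates pH at the cell surface, was close to the limit of detection. It gave 12, 6 and 0 counts at 0 h and 22, 50 and 30 counts at 3 d, or 0.96, 0.64 and 0 CPM against 2.16, 14.7 and 7.28 CPM. The groups did not overlap, but the log2 fold change of 3.77 ± 1.22 missed the threshold (adjusted p = 0.289), and it was 3.03 ± 1.29 without 3 d mouse 2. In 4 of the 30 mice, each at a different time, the expected count of Car9 was 0 after rounding (the 0 h mouse among them was listed at 0.08 TPM), and a count of 0 allows up to 3 counts by counting error alone.

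**Figure D2:**
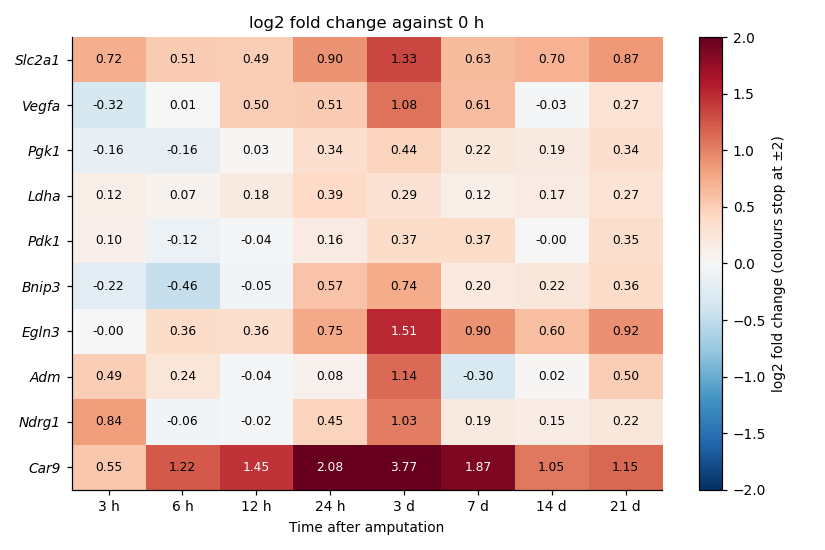
Fitted log2 fold change against 0 h (colour and number) of each gene (rows) at the 8 later time points (columns), from all 30 mice in a single fit. All 10 genes have a value above 0 at 24 h, at 3 d and at 21 d, and only Egln3 at 3 d (1.51) passed the adjusted threshold.

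No member was called at the other times or in the pooled hours. The shares of all genes called by edgeR were 0.254% at 3 h, 0.189% at 6 h, 0.167% at 12 h, 0.493% at 24 h, 2.34% at 7 d, 1.61% at 14 d and 1.94% at 21 d. At an unadjusted p under 0.05, 2 members passed at 3 h, 0 at 6 h, 0 at 12 h, 3 at 24 h, 3 at 7 d, 0 at 14 d and 2 at 21 d. Of the 13793 genes tested, 1506, 998, 1058, 1298, 1830, 1229 and 1272 passed that cut at these times. DESeq2 called 1 member at 7 d (Egln3), beside 4.32% of all genes, and 0 members at the other 6 of these times. For the 4 early times together (3 h to 24 h) against 0 h, 0 members were called beside 0.305% of all genes, with 1 at an unadjusted p under 0.05 and 0 by DESeq2. That unadjusted cut was passed by 1150 of the 13793 genes. For 3 d to 21 d against 0 h, 0 members were called beside 1.85% of all genes, with 3 at an unadjusted p under 0.05, and DESeq2 called 2 (Slc2a1 and Egln3). Among all genes, 1367 passed the unadjusted cut, and DESeq2 called 3.16%. The median log2 fold change of the 10 genes at 3 d was 1.05, with all 10 above 0, and that of all genes tested was -0.01, with 49.1% above 0. At 24 h the median was 0.48, again with all 10 above 0, against 0.01 over all genes. At 21 d all 10 were above 0 as well, beside 49.4% of all genes. These values share the same 0 h mice and are descriptions. At 3 d without mouse 2, Slc2a1 was at 0.67, Vegfa 0.46, Pgk1 0.37, Ldha 0.20, Pdk1 0.25 and Bnip3 0.16. Egln3 was then at 1.04, Adm at -0.04, Ndrg1 at 0.20 and Car9 at 3.03. The steps into and out of 3 d were compared after the 3 d values had been seen. For 3 d against 24 h, 0 members were called by edgeR and by DESeq2, beside 0.0653% of all genes by edgeR. At an unadjusted p under 0.05, 1 member passed, beside 903 of the 13793 genes tested. For 7 d against 3 d, 0 were called by both, beside 0.0145% of all genes by edgeR. Here 5 members passed at an unadjusted p under 0.05, beside 1260 of the 13793 genes. Without 3 d mouse 2 the lowest unadjusted p of a member in that step was 0.3 (Car9, edgeR).

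**Figure D3:**
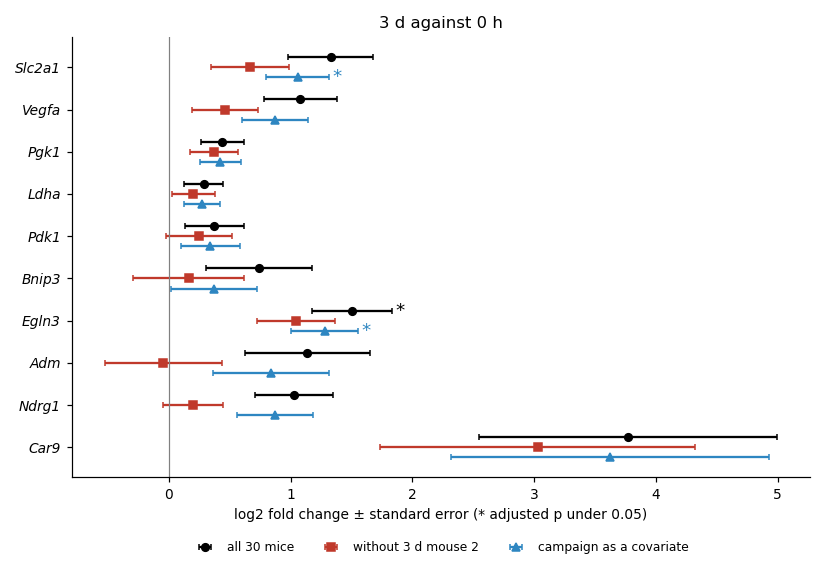
Log2 fold change at 3 d against 0 h (x axis, bars are standard errors) of the 10 genes with all 30 mice, without 3 d mouse 2, and with campaign as a covariate; asterisks mark an adjusted p under 0.05. Leaving out 3 d mouse 2 moves the values of Slc2a1, Vegfa, Bnip3, Egln3, Adm and Ndrg1 towards 0, with Adm at -0.04, while Pgk1 moves from 0.44 to 0.37.

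Other genes were also high in 3 d mouse 2. Its summed level of the 10 members was 3378 CPM against 1885 and 2203 CPM in the other 3 d mice, the highest of all 30 mice. The sum of 16 other HIF targets was likewise the highest of all mice, at 1468 CPM against 1180 and 1100 CPM in the other 3 d mice, and 5 of the 16 were highest in it. The sum of 18 other genes of glycolysis and glucose or lactate transport was 6224 CPM against 5645 and 5798 CPM, with rank 2 of the 30 mice and 5 of the 18 highest in it. The 9 measured genes of the HIF pathway summed to 1162 CPM against 1327 and 1330 CPM, with rank 18, and none was highest in it. Summed fibroblast markers were 17340 CPM in it against 6045 and 8229 CPM, and keratinocyte markers 33160 CPM against 48930 and 39070 CPM. Macrophage markers were 279.4 CPM against 99.7 and 270.7 CPM, endothelial markers 198.3 CPM against 143.8 and 189.6 CPM, and osteoclast markers 621.2 CPM against 907.2 and 795.0 CPM. The part of these differences, and of its low depth, in the levels of the 10 genes was not tested.

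A comparison that does not use the 0 h mice set the days (3 d, 7 d, 14 d and 21 d, 15 mice) against the hours (3 h, 6 h, 12 h and 24 h, 12 mice). Here 2 of the 10 genes were higher in the days, beside 13.6% of all genes tested, so their number is close to the background. Egln3 was higher by a log2 fold change of 0.61 ± 0.156 (adjusted p = 0.00846) and Pgk1 by 0.29 ± 0.085 (adjusted p = 0.0246). Without 3 d mouse 2 both passed, at 0.50 ± 0.146 (adjusted p = 0.0236) and 0.27 ± 0.088 (adjusted p = 0.0427). With campaign as a covariate Slc2a1 (0.56 ± 0.140, adjusted p = 0.00748), Vegfa (0.49 ± 0.144, adjusted p = 0.0235) and Bnip3 (0.74 ± 0.186, adjusted p = 0.0076) passed as well, beside 12.1% of all genes. With 3 d mouse 2 also left out, Vegfa was at 0.31 ± 0.126 and its call was lost (adjusted p = 0.124), while Slc2a1 and Bnip3 still passed (adjusted p = 0.035 and 0.0304). The log2 fold change of Ldha was 0.02 ± 0.077, and 0.04 ± 0.081 with campaign as a covariate.

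The campaigns were spread unevenly here, with 10 of the 12 hour mice but 5 of the 15 day mice from the earlier one. On the log2(CPM + 1) scale Egln3 was higher in the days by 0.93 among mice of the earlier campaign and by 0.18 among those of the later one, where only 2 hour mice stood against 10 day mice. For Pgk1 these differences were 0.38 and 0.06, for Slc2a1 0.43 and 0.30, for Vegfa 0.62 and 0.09, and for Bnip3 0.90 and -0.06. A test of whether the time course differed between campaigns, over the 21 mice of the 6 times with both, called 0 of the 10 genes by edgeR and 0.883% of all genes tested. At an unadjusted p under 0.05, 2 members passed, Bnip3 (adjusted p = 0.264) and Pdk1 (adjusted p = 0.303), beside 1783 of the 13587 genes tested. DESeq2 was not run for this test.

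**Figure D4:**
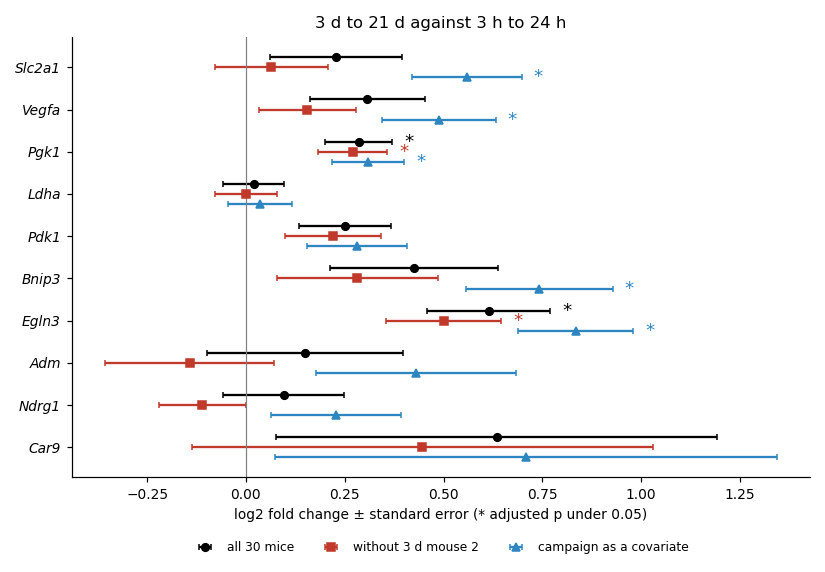
Log2 fold change of the days (3 d to 21 d) against the hours (3 h to 24 h) of the 10 genes (x axis, bars are standard errors) with all mice, without 3 d mouse 2, and with campaign as a covariate; asterisks mark an adjusted p under 0.05. Egln3 and Pgk1 carry an asterisk in all 3 fits, and Slc2a1, Vegfa and Bnip3 only with campaign as a covariate.

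Other genes of the same processes were counted from lists chosen by function. Of all genes tested, 9.01% were called in the F-test and 13.6% in the days against the hours. Of 18 further genes of glycolysis and transport, 4 changed over the course by the F-test, namely Slc16a3, Slc16a1, Hk2 and Pfkl. Slc16a3, the exporter of lactate MCT4 and itself a HIF target, was called at 5 of the 8 later times, beside 1 for Egln3. It rose from a mean of 3.16 ± 1.17 CPM at 0 h to 19.9 ± 4.96 CPM at 24 h, 35.4 ± 24.5 CPM at 3 d and 28.1 ± 9.41 CPM at 7 d. Its log2 fold change was 2.69 ± 0.473 at 24 h (adjusted p = 0.00302), 3.50 ± 0.483 at 3 d (adjusted p = 0.000155, and 2.82 with adjusted p = 0.00226 without 3 d mouse 2) and 2.44 ± 0.467 at 21 d (adjusted p = 0.00261). Slc16a1, which carries lactate in either direction, rose at 7 d by 1.503 ± 0.251 (adjusted p = 0.000613). Hk2, the hexokinase that traps glucose in the cell, rose at 3 h and was called at no other time, by 1.31 ± 0.283 (adjusted p = 0.0383). The core enzymes Gapdh, Aldoa, Tpi1, Eno1 and Pkm were not called in the F-test. In the days against the hours, 2 of the 18 were called, Slc16a3 and Pgam1, and Pgam1 was not called with campaign as a covariate (adjusted p = 0.218).

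Of the 9 measured genes of oxygen sensing and HIF itself, Egln1 and Hif1a changed by the F-test (adjusted p = 0.00206 and 0.0117). In the days against the hours, 2 were higher and 2 lower. Egln1, the main HIF hydroxylase PHD2, was higher by 0.52 ± 0.088 (adjusted p = 0.000151), and Hif1a, the alpha subunit, by 0.33 ± 0.085 (adjusted p = 0.00861). Hif1an, the asparaginyl hydroxylase that restrains HIF, was lower by a log2 fold change of -0.32 ± 0.084 (adjusted p = 0.0108), and Cul2, a scaffold of the VHL ligase, by -0.29 ± 0.097 (adjusted p = 0.0415). With campaign as a covariate the calls of Hif1an (adjusted p = 0.0644) and Cul2 (adjusted p = 0.251) were lost, and those of Egln1 and Hif1a were not. HIF activity is set chiefly through protein, which was not measured.

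Of 16 other HIF targets, 4 changed over the course, namely P4ha2, P4ha1, Gys1 and Ddit4. P4ha1 and P4ha2 encode collagen prolyl hydroxylases, and both had their highest mean at 21 d. P4ha1 rose at 14 d by 1.36 ± 0.296 (adjusted p = 0.0104) and at 21 d by 1.37 ± 0.296 (adjusted p = 0.00841), and P4ha2 at 21 d by 1.64 ± 0.342 (adjusted p = 0.0057). Summed fibroblast markers, which include collagens, rose over the same mice, from 5622 to 10970 CPM at 0 h to 38007 to 45157 CPM at 14 d and 36322 to 62805 CPM at 21 d, and their part in these values was not tested. Of 7 receptors of Vegfa and Adm, Nrp2 and Flt1 changed. Flt1, a receptor of Vegfa on endothelium, rose at 24 h by 1.0699 ± 0.240 (adjusted p = 0.0296) and at 7 d by 0.84 ± 0.214 (adjusted p = 0.0285), and Nrp2, a co-receptor also on lymphatic vessels, rose at 7 d, 14 d and 21 d, at 14 d by 1.02 ± 0.211 (adjusted p = 0.00696). Of 10 genes of pyruvate entry to mitochondria, Ldhb and Pdp1 changed, and Pdp1, the phosphatase that opposes Pdk1, was lower in the days than in the hours by a log2 fold change of -0.73 ± 0.166 (adjusted p = 0.00351, and 0.0954 with campaign as a covariate).

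**Figure D5:**
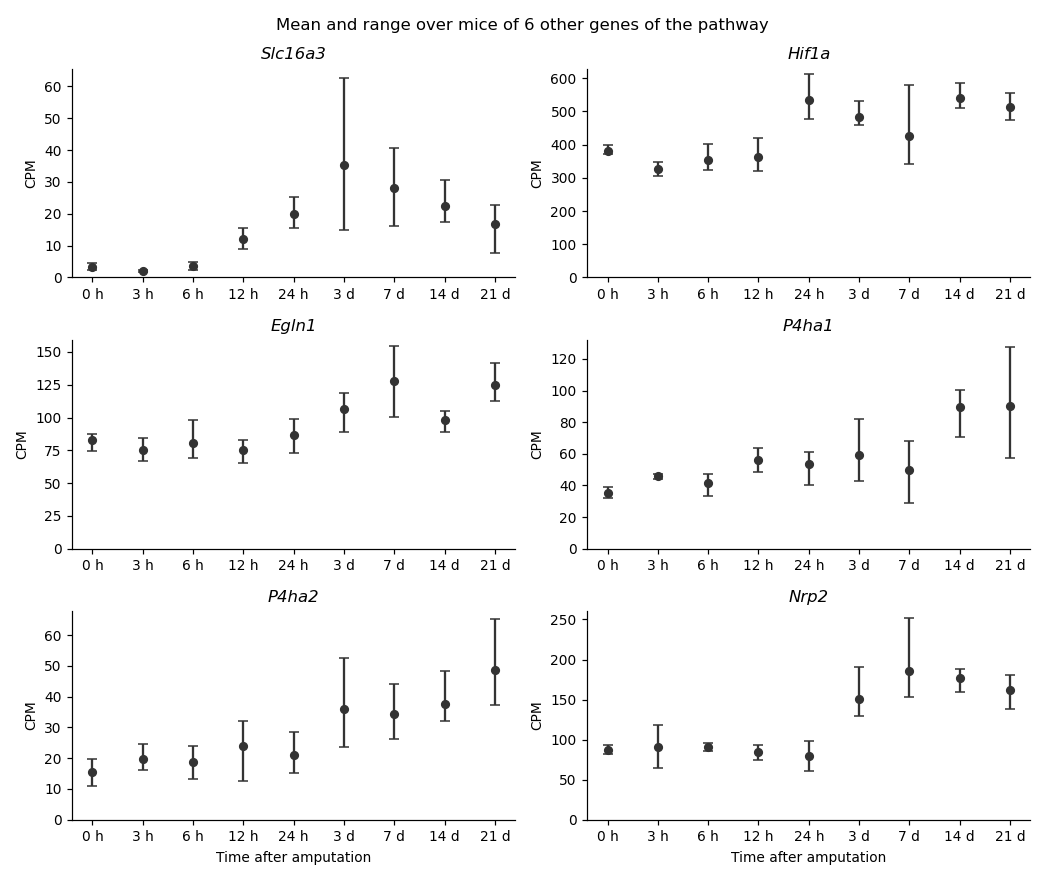
Level (y axis, CPM, from 0) of 6 other genes of the lists, each of which changed in the F-test and in the days against the hours, by time after amputation (x axis, in order and not to scale); points are means and bars run from the lowest to the highest mouse (n = 3, and 6 at 7 d). Slc16a3 is at 3.16 CPM on average at 0 h and 35.4 CPM at 3 d, while P4ha1 and P4ha2 are highest at 21 d.

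Markers of other cells moved between the hours and the days as well. Beside the counts below, 13.6% of all 13793 genes were called in that comparison, 1128 higher and 751 lower. Summed osteoclast markers ran from 69.9 to 163.0 CPM in the hour mice and from 300.2 to 4038 CPM in the day mice, with 4 of 5 tested markers called higher. Fibroblast markers ran from 3331 to 11520 CPM and from 6045 to 62805 CPM, with 4 of 6 higher and 1 lower. Osteoblast and osteocyte markers ran from 133.5 to 350.3 CPM and from 207.1 to 3572 CPM, with 2 of 6 higher and 1 lower. Macrophage markers ran from 68.3 to 173.7 CPM and from 94.7 to 444.8 CPM with 4 of 6 higher, and neutrophil markers from 15.3 to 115.0 CPM and from 18.9 to 186.3 CPM with 2 of 5 higher. Endothelial markers ran from 77.2 to 185.1 CPM and from 131.5 to 270.0 CPM with 1 of 6 higher, cycling cell markers from 227.1 to 718.0 CPM and from 448.7 to 973.5 CPM with 5 of 6 higher. Keratinocyte markers ran from 37520 to 92380 CPM and from 27970 to 63400 CPM with 1 of 6 lower, and erythroid markers from 38.4 to 334.8 CPM and from 5.51 to 83.5 CPM with 4 of 5 lower. Skeletal muscle markers ran from 0 to 7.71 CPM and from 1.55 to 10.5 CPM with 0 of 4 called. At an unadjusted p under 0.05, 1 of these 4 passed, beside 3832 of the 13793 genes tested. No marker in the table was at 0 in all mice. The part of these changes in the values of Egln3 and Pgk1 was not tested.

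Whether the members rose and fell together beyond time was examined among 25 mice that shared both time and campaign with another mouse, after the mean of each such group had been taken off log2(CPM + 1). Of 45 pairs of members, 37 had a Pearson r above 0, with a median of 0.301, and the median was 0.196 without the 3 d mice. Permutation within time and campaign, with Benjamini-Hochberg adjustment over the 45 pairs, called 2 pairs. Pairs of genes outside the panel were not examined in this way. These counts therefore have no background share and cannot be read as particular to the members. Pgk1 and Ldha had r = 0.812 (permutation p = 0.00044, adjusted p = 0.0175) and Spearman's rho = 0.788 (permutation p = 0.00112, adjusted p = 0.0252). Without the 2 mice farthest from the median of Pgk1, r was 0.804, and it was 0.877 in the 14 mice of the earlier campaign and 0.745 in the 11 of the later one. Both share exon stretches with copies elsewhere in the genome, as given above. Bnip3 and Egln3 had r = 0.802 (permutation p = 0.00078, adjusted p = 0.0175) and rho = 0.833 (permutation p = 0.00041, adjusted p = 0.0184), with r = 0.807 without the 2 farthest mice, 0.849 in the earlier and 0.765 in the later campaign. Slc2a1 and Vegfa had r = 0.362 (permutation p = 0.718, adjusted p = 0.789) and rho = 0.0815 (permutation p = 0.815, adjusted p = 0.834), and r was -0.173 without the 3 d mice.

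The mean of the 10 members was related in the same way to each of the 10 marker lists, and 0 lists passed the adjusted threshold by Pearson's r or Spearman's rho. For fibroblast markers r was 0.530 (permutation p = 0.202, adjusted p = 0.404) and rho 0.398 (permutation p = 0.213, adjusted p = 0.533), and r was 0.280 without the 2 farthest mice. For keratinocyte markers r was -0.505 (permutation p = 0.0394, adjusted p = 0.206) and rho -0.465 (permutation p = 0.0769, adjusted p = 0.367), with r = -0.315 without the 2 farthest. For cycling cell markers r was -0.430 (permutation p = 0.0435, adjusted p = 0.206) and rho -0.560 (permutation p = 0.0238, adjusted p = 0.238), with r = -0.509.

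Over all 30 mice, Egln3 followed the mean of the members most closely, with r = 0.899 (0.868 without 3 d mouse 2), and Adm least, with r = 0.523 (0.197 without it). Each member is itself part of that mean, which raises its r, so these values cannot be compared with those of genes outside it. Among genes outside the lists, Ndufa4l2, a mitochondrial protein known as a HIF target, had the pattern most like that mean, with r = 0.752 over the 30 mice and 0.759 without 3 d mouse 2. Sprr2a1, Ctsb, Spink12 and Ctsl followed, with r from 0.714 to 0.732. These correlations describe the pattern over mice that share times and campaigns, and carry no test.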

How the data were processed

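RNA of each digit was made into poly-A libraries from 100 ng (LM-Seq, 18 PCR cycles) and read as single ends of 65 bases. The authors mapped reads to Ensembl mouse genes with Bowtie and estimated, with RSEM 1.2.3, the expected counts and TPM that they deposited. Their processing notes name CASAVA 1.8.2 and mm10. The expected counts deposited are not normalized, and the deposited TPM are relative to all genes of a mouse. The deposited averages per time point were not used. Replicates were taken as separate mice, as the study states, although the titles of 0 h mouse 3 and 12 h mouse 2 share an animal label and date.

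Expected counts (78.1% whole, tolerance 1e-06) were rounded and tested in edgeR 4.0.16 (R 4.3.3) with TMM and its default low-count filter, by quasi-likelihood in a single model of all 30 mice without covariates, with Benjamini-Hochberg adjustment at 0.05, which kept 13793 of 20321 genes. Fold changes are fitted log2 values with standard errors. CPM use TMM-scaled library sizes. Alternatives were DESeq2 1.42.0, limma 3.58.1 on log2(TPM + 1) or log2(TPM + 0.1), other filters, campaign as a covariate, removal of left-foot mice, and each mouse left out. Permutations (two-sided, 100000 resamples) used numpy 2.4.6. Methods were tested on simulated data. Libraries of the same time differed beyond counting noise, their chi-square divided by its degrees of freedom being at least 9.83 in 39 pairs.

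The members, lists and comparisons were chosen with earlier results of these data known. All 10 members are named. From each other list, up to 5 genes with the lowest p of the F-test among those called were eligible, and all genes called in the days against the hours are given for the HIF pathway; the latter and the genes plotted beside the members were chosen after their values were seen. The 5 genes most like the members have the highest Pearson r with the mean of their standardized log2(CPM + 1). The allowance of 3 counts at a count of 0 covers counting error alone, as reads copied by PCR do not stand for separate molecules.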

Additional observations from a re-analysis of the deposited data

Results flagged for a closer look

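At 7 d, the only time with more than 3 mice, 1 of 26 measures examined had a mouse far from the other 5. For Adm on the log2(CPM + 1) scale, the gap of 7 d mouse 3 to its nearest neighbour was 0.637 of the whole range of the group, above Dixon's 95% critical value for 6 samples. That mouse, labelled left foot, stood at 2.77 CPM (15 counts), and the others ran from 10.3 to 20.1 CPM. Chance passes about 1 in 20 groups, or 1.3 of 26.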

How the results depend on the processing

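The number of members called over the 9 times was 2. It was 5 with DESeq2, 5 with campaign as a covariate and 0 with limma at either pseudocount, and it ran from 1 to 3 when single mice were left out. At 3 d against 0 h it was 1, and 4 with DESeq2 (Slc2a1, Vegfa, Egln3 and Car9), 2 with campaign as a covariate, 0 with limma at either pseudocount, 0 with only the mice of the times compared, and 0 without 3 d mouse 2 with campaign as a covariate. It ran from 0 to 4 when single mice were left out, being 0 without any 1 of the 0 h mice or 3 d mouse 2, and 4 without 3 d mouse 1. At 7 d it was 0, but 1 with DESeq2, with campaign as a covariate or without left-foot mice, and 2 without 3 d mouse 2 with campaign as a covariate, and it ran from 0 to 1 with single mice left out (1 without 7 d mouse 4). At 21 d it was 0, but 2 with campaign as a covariate, with or without 3 d mouse 2. For 3 d to 21 d against 0 h it was 0, but 2 with DESeq2, 2 with campaign as a covariate with or without 3 d mouse 2, and 1 with no filter or without left-foot mice, and it ran from 0 to 1 with single mice left out (1 without 3 d mouse 1, 7 d mouse 1, 3 or 4, or 21 d mouse 3). For the days against the hours it was 2, but 5 with campaign as a covariate and 4 when 3 d mouse 2 was also removed (Vegfa was lost), and 2 whichever single mouse was left out. The remaining counts of members stayed at 0 in each alternative run. The share of all genes called differed between fits. Over the 9 times it was 9.01% in the main fit, 18.1% with DESeq2, 12.2% with campaign as a covariate, and 7.31% and 6.72% with limma. In the main, DESeq2 and campaign fits it was 0.551%, 1.13% and 0.638% at 3 d. At 7 d these shares were 2.34%, 4.32% and 3.83%, and at 21 d 1.94%, 2.77% and 2.89%. For 3 d to 21 d against 0 h they were 1.85%, 3.16% and 2.65%. The fold change of Adm at 3 d ran from -0.04412 to 1.554 with single mice left out, reversing without 3 d mouse 2, and was -0.09169 when campaign was also a covariate, where that of Bnip3 reversed to -0.03096. Over all alternatives other than single mice left out, the log2 fold change of Egln3 at 3 d ran from 0.95 to 1.53 (adjusted p from 0.00108 to 0.185). The campaign fits compare 3 h, 12 h and 21 d with few mice of the same campaign, the cause of the other shifts was not tested, and Adm and Car9 are limited by depth. Removing 3 d mouse 2 together with adding campaign was chosen after seeing the data. No paired analysis was possible because the labels give no replicate numbers, and the animal label and date in the titles are shared by only 1 pair of samples, 0 h mouse 3 and 12 h mouse 2. With either of these left out, 0 members were called at 12 h.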
